A study of Homo sapiens and Homo sapiens
Mus musculus and Mus musculus with 9 samples.

Results

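The 48 genes described here encode proteins of the lysosome and of autophagy, and they were taken by symbol from a table of 41713 genes quantified as human in C4-2B cells and in their mixed co-culture with MC3T3-E1 cells. C4-2B cells are an established line of human prostate cancer, and MC3T3-E1 cells are osteoblasts of the mouse. All 48 symbols were found once each, and they comprised 23 lysosomal genes, 22 core autophagy genes and 3 transcription factors that regulate both. The study sequenced 3 libraries of C4-2B cells cultured alone, 3 libraries of the co-culture, in which 30 MC3T3-E1 cells were mixed with each C4-2B cell, and 3 libraries of MC3T3-E1 cells alone. The labels give the genotype WT for all of them, while the study's methods describe the C4-2B cells of its co-cultures as a line that stably carries GFP. The question of the design was how the transcriptome of C4-2B cells differs between the co-culture and culture alone. The values analysed here were means over 6 libraries, 3 of C4-2B alone and 3 of the co-culture, so they give the level of each gene in both cultures together. They give no spread between libraries and no difference between the cultures, and no test was run. In a bulk library of the co-culture, fewer C4-2B cells and less RNA per cell cannot be told apart.

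Lysosomes are acidic organelles that degrade material delivered by endocytosis and autophagy. Their lumen holds soluble hydrolases, their membrane is lined with heavily glycosylated proteins, and a proton pump, the V-ATPase, keeps them acidic. In autophagy, a double membrane grows around cytoplasm, closes and fuses with the lysosome. The ULK complex starts the process, a lipid kinase complex marks the membrane, ATG9A and lipid transfer proteins feed it, and a conjugation system attaches small ubiquitin-like proteins of the ATG8 family to it. Transcription factors of the MiT/TFE family, TFEB, TFE3 and MITF, bind an E-box in the promoters of many of these genes.

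Every value was given by 3 pipelines that separate human from mouse reads, Xenome, XenofilteR and Kallisto, as a mean normalised count, which is the average over libraries of the count divided by the size factor of its library. Solving the lowest means as sums of whole reads gave 6 Xenome size factors, 3 between 4.86 and 5.93 and 3 between 0.109 and 0.427, so that 1 read added from 0.0281 to 1.53 to a mean. These size factors were not matched to samples. At an equal level in all 6 libraries, the counting error of a member's mean ranged from 0.504% for PSAP to 4.37% for MITF, and MITF would have had 30.1 reads in the shallowest library. These errors cover counting only and leave out the spread between cultures. Of the 10 marker genes of C4-2B cells, 9 were in the table, and all 9 had a level above the median of protein-coding genes, from 699 to 11002 counts per kb. Of 10 osteoblast genes, only COL1A1 was above it, whose mean count was 3384 by Xenome, 4557 by XenofilteR and 2471 by Kallisto. The others above a mean of 10 were COL1A2 with 45.0, 264 and 222 in the same order, COL3A1 with 43.9, 389 and 84.1, SPARC with 72.0, 142 and 142, and RUNX2 with 411, 399.7 and 385. The remaining 5 genes had Xenome means from 0.103 to 4.22, and the part of mouse reads in the members' means was not tested.

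The lysosomal genes as a list lay at a higher level than the autophagy genes. To compare genes, each Xenome mean was divided by the length of the gene's merged exons, which gives a level in counts per kb. The median level was 501 counts per kb for the 23 lysosomal genes and 284 for the 22 autophagy genes, a ratio of 1.77, and 220 for the 13327 protein-coding genes whose mean count reached 10. The quartiles of the lysosomal genes were 347 and 819 counts per kb, and those of the autophagy genes were 192 and 458. The ranges of the lists overlapped, since only 3 of 23 lysosomal genes lay above the highest autophagy gene and 1 lay below the lowest. At the same time, 4 of 22 autophagy genes lay above the lysosomal median and 18 of 23 lysosomal genes lay above the autophagy median. Above the protein-coding median were 35 of 48 members (72.9%), made up of 19 lysosomal genes, 15 autophagy genes and 1 regulator. The ratio was lower, at 1.27, when the 13 enzymes and luminal proteins alone stood for the lysosome, because the membrane proteins and the V-ATPase genes had higher medians than the enzymes.

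**Figure D1:**
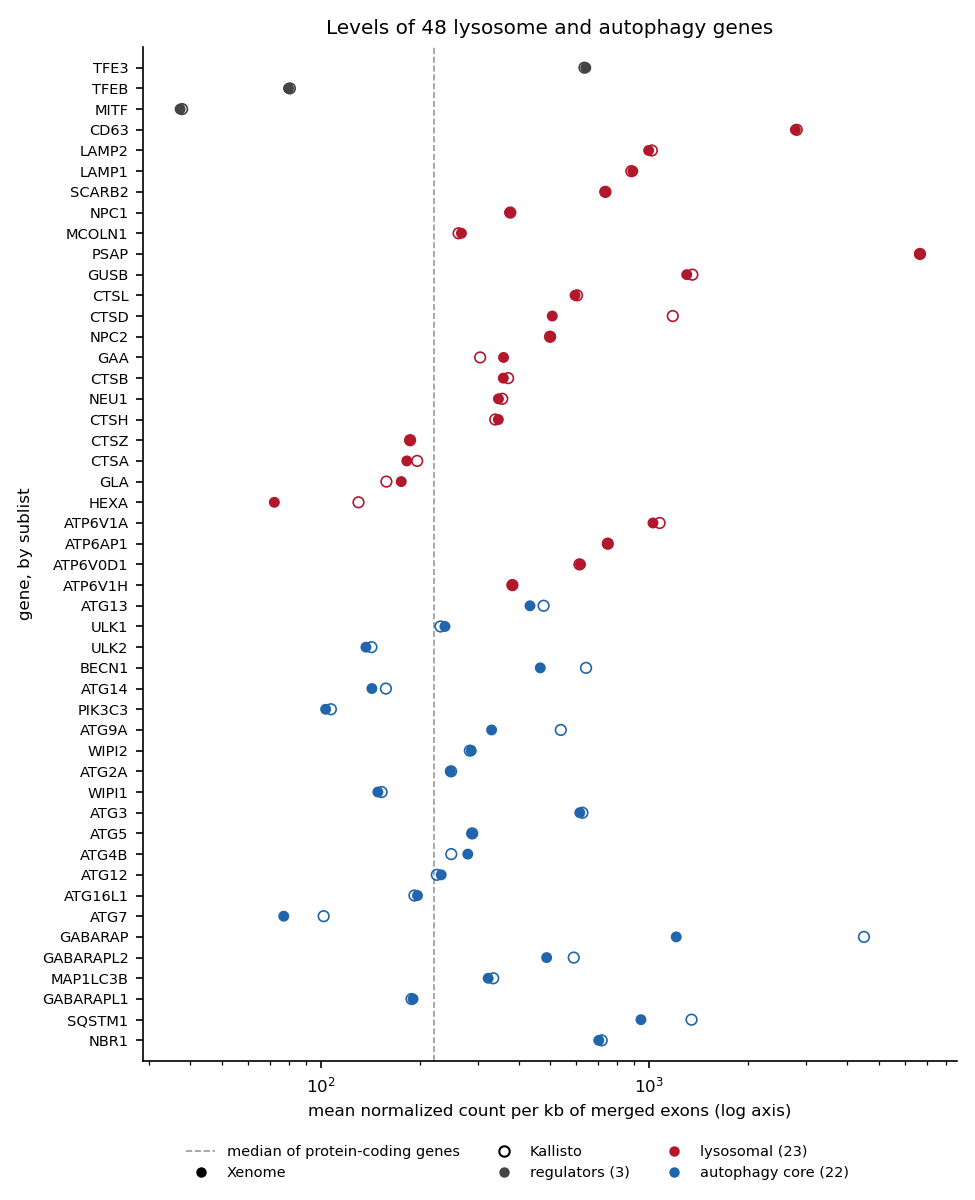
Mean normalised count per kb of merged exons (log axis) of each of the 48 genes, with Xenome (filled) and Kallisto (open), ordered within sublists, with the protein-coding median of 220 as a dashed line. PSAP stood highest at 6663 counts per kb and MITF lowest at 37.3, and the filled and open points lay far apart for GABARAP, CTSD, HEXA and ATG9A.

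The 3 regulators differed widely in level. TFE3 had mean counts of 2696 with Xenome, 2688 with XenofilteR and 2671 with Kallisto, and its level of 641 counts per kb exceeded that of 77.0% of protein-coding genes. TFEB, the regulator for which the lysosomal gene network was first described, had mean counts of 536, 528 and 541 in the same order, and a level of 79.7 counts per kb. MITF, best known as the melanocyte master regulator, had mean counts of 276, 271 and 280, and a level of 37.3 counts per kb, the lowest of all 48 members. The 3 pipelines thus gave the same order, TFE3 above TFEB above MITF, and for each of these genes the pipelines differed far less than the genes did among themselves.

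The lysosomal membrane genes were all above the protein-coding median. CD63, a tetraspanin of late endosomes and lysosomes, was the highest of them at 2786 counts per kb, with mean counts of 6749 with Xenome, 6741 with XenofilteR and 6814 with Kallisto. LAMP2 and LAMP1, the most abundant glycoproteins of the lysosomal membrane, followed at 996 and 891 counts per kb. The mean counts of LAMP2 were 10585 with Xenome, 10613 with XenofilteR and 10825 with Kallisto, so the pipelines hardly differed. SCARB2, the receptor that carries glucocerebrosidase to the lysosome, was at 733 counts per kb. NPC1, which exports cholesterol, was at 376. MCOLN1, the calcium channel TRPML1, was at 268 counts per kb, with mean counts of 1061, 1062 and 1039.5 in the order Xenome, XenofilteR and Kallisto. The membrane list had a median of 812 counts per kb, and the pipelines gave nearly the same value for each of its 6 genes, with Kallisto over Xenome ratios from -0.06 to 0.00 on the log2 scale after centring on the protein-coding median.

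The enzymes and luminal proteins spanned the widest range of the sublists, from 72.2 to 6663 counts per kb, with a median of 359. PSAP, the precursor of the saposins that activate sphingolipid hydrolases, had mean counts of 20754 with Xenome, 20816 with XenofilteR and 20802 with Kallisto, and its level exceeded that of 99.0% of protein-coding genes. PSAP alone made up 32.6% of the summed level of the 23 lysosomal genes. GUSB, the beta-glucuronidase, was next at 1301 counts per kb, with mean counts of 5064, 5072 and 5268 in the same order. CTSL and CTSD, a cysteine and an aspartic protease, were at 594 and 507 counts per kb, and NPC2, the soluble partner of NPC1, was at 501. Between 347 and 360 counts per kb lay GAA, the acid alpha-glucosidase, CTSB, NEU1, the lysosomal sialidase, and CTSH. Below the protein-coding median were 4 of the 13 genes. CTSZ was at 187 counts per kb, with mean counts of 3621, 3628 and 3624 in the order Xenome, XenofilteR and Kallisto. CTSA, the protective protein of NEU1, was at 183, with mean counts of 1577, 1574 and 1696. GLA, the alpha-galactosidase deficient in Fabry disease, was at 176, with mean counts of 1088, 1085 and 981. HEXA, the alpha subunit of beta-hexosaminidase, was lowest at 72.2, with mean counts of 1147, 1161 and 2069, the only one of these 4 genes for which a pipeline stood far from the others. The low levels of CTSZ and HEXA depend on long gene models. Their merged exons were 19384 and 15893 bases long, against a median of 5347 for protein-coding genes. CTSL, with merged exons of 6113 bases, had a Xenome mean of 3634, close to the 3621 of CTSZ. The order among CTSB, GAA, NEU1 and CTSH rests on differences of a few percent, and without values per library it cannot be said whether they differ beyond the spread between cultures.

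All 4 V-ATPase genes among the members lay above the protein-coding median. ATP6V1A, the catalytic subunit, was at 1027 counts per kb, with mean counts of 6500.0 with Xenome, 6695 with XenofilteR and 6811 with Kallisto. ATP6AP1, an accessory subunit, was at 747 counts per kb. ATP6V0D1, a subunit at the base of the membrane sector, was at 617, and ATP6V1H, a regulatory subunit, was at 383 counts per kb. These 4 members thus spanned levels from 383 to 1027 counts per kb. The 12 other V-ATPase genes, which are not among the members, ranged more widely, from 78.0 for ATP6V0A2 to 6799 for ATP6V1F. Of these, ATP6V0A2 and ATP6V0A1, at 202 counts per kb, were below the protein-coding median, and all the others were above it.

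The 2 cargo receptors among the autophagy genes, SQSTM1 and NBR1, stood above the protein-coding median. SQSTM1, which encodes p62 and binds ubiquitinated cargo, was at 944 counts per kb, with mean counts of 7110 with Xenome, 7098 with XenofilteR and 10138 with Kallisto. NBR1, a related receptor, was at 702 counts per kb, with mean counts of 5899.95 with Xenome, 5900.3 with XenofilteR and 6023 with Kallisto. Receptors outside the 48 ranged more widely, with OPTN at 36.5 counts per kb, CALCOCO2 at 465 and TAX1BP1 at 1695. In the ULK complex, ATG13, the adaptor subunit, was at 433 counts per kb, ULK1 at 239 and ULK2, the other kinase of the pair, at 137. The mean counts of ULK2 were 1353, 1349.7 and 1407 in the order Xenome, XenofilteR and Kallisto. In the lipid kinase complex, BECN1 was at 466 counts per kb, while ATG14, which directs the complex to autophagy, was at 143 and PIK3C3, the catalytic subunit, was at 103. The mean counts were 719, 717 and 793 for ATG14 and 1567, 1567 and 1626 for PIK3C3 in that order. PIK3C3 thus had more counts than ATG14 but a lower level, because its merged exons were 15154 bases long against 5025. The order of these genes by level therefore depends on the gene model. Among the members of each of these complexes, the kinase genes were below the highest partner gene. PIK3R4, of the lipid kinase complex and not among the 48, was at 609 counts per kb, above BECN1.

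The genes that supply and decorate the growing membrane lay between 77.1 and 614 counts per kb. ATG9A, the transmembrane scramblase, was at 331 counts per kb with Xenome and 538 with Kallisto. WIPI2, which recruits ATG16L1, was at 287 counts per kb, ATG2A, the lipid transfer protein, at 248 and WIPI1 at 149. The mean counts of WIPI1 were 508 with Xenome, 505 with XenofilteR and 521 with Kallisto, and it had the fewest counts of the autophagy genes. In the conjugation system, ATG3, the E2-like enzyme, was highest at 614 counts per kb, with mean counts of 3754 with Xenome, 3783 with XenofilteR and 3825 with Kallisto. ATG5 was at 289 counts per kb, ATG4B, the protease that primes ATG8 proteins, at 280, ATG12 at 233 and ATG16L1 at 197. ATG7, the E1-like enzyme, was lowest at 77.1 counts per kb, with mean counts of 681, 680 and 901 in the same order. ATG10, the other E2-like enzyme of the pathway and not among the 48, was at 89.0 counts per kb, near ATG7 and not near ATG3.

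In the ATG8 family, which holds the proteins attached to the membrane, the order of the genes was the same with Xenome and Kallisto but the level of 1 gene differed widely. GABARAP had mean counts of 2358 with Xenome, 2354 with XenofilteR and 8795 with Kallisto, and levels of 1208 counts per kb with Xenome and 4508 with Kallisto. GABARAPL2 had mean counts of 1466, 1808 and 1773 in the same order, and a level of 487 counts per kb. MAP1LC3B, the LC3 protein most used as a marker of autophagosomes, had mean counts of 1628, 1620 and 1687, and a level of 323 counts per kb. GABARAPL1 had mean counts of 774, 772 and 765, and a level of 191 counts per kb. GABARAP was the highest of the 4 genes in each pipeline, and it held 54.7% of the summed level of the family by Xenome, 52.0% by XenofilteR and 80.2% by Kallisto.

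The coding sequences of this family are shown because they differ in how much they share with mouse, and the pipelines separate the species by such differences. The longest runs of coding bases made of 31-base words that also occur in mouse transcripts are printed 5′ to 3′ in lower case, from GENCODE transcripts on GRCh38. The run of GABARAPL2 covers coding bases 244 to 314 and spans introns between its genomic ends, chr16:75568190-75577329 (plus strand).
GABARAPL2: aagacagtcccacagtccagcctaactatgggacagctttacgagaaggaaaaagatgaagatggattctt
The run of GABARAPL1 covers coding bases 202 to 278, at chr12:10220472-10220548 (plus strand).
GABARAPL1: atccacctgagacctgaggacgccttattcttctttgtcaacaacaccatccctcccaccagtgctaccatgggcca
The run of GABARAP covers coding bases 109 to 164, at chr17:7241606-7241661 (minus strand).
GABARAP: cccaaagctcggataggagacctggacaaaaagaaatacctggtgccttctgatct
These runs are 71, 77 and 56 bases long, and reads of the study were 50 bases long. MAP1LC3B had no coding word in common with mouse transcripts, although its coding sequence of 375 bases is of similar length to that of GABARAP, at 351 bases.

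Across the members, the share of coding words found in mouse transcripts differed between the lists. The median share was 0.228% for the lysosomal genes and 3.96% for the autophagy genes, and 9 of 23 lysosomal genes had no shared coding word against 2 of 22 autophagy genes, MAP1LC3B and ATG14. The highest shares were those of GABARAP with 22.7%, GABARAPL2 with 22.4% and GABARAPL1 with 18.7%, followed by ATG3 with 16.0% and ATG5 with 14.0%. Among lysosomal genes, ATP6V1H had the highest share with 9.51%, and no membrane protein or enzyme exceeded 2.92%. Coding words were computed for the members only. Over all transcript words, the median share found in mouse transcripts was 0.153% for the lysosomal and 1.33% for the autophagy genes, below and above the 0.646% of protein-coding genes. These shares describe the annotated sequences and use no measurement of the study.

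**Figure D2:**
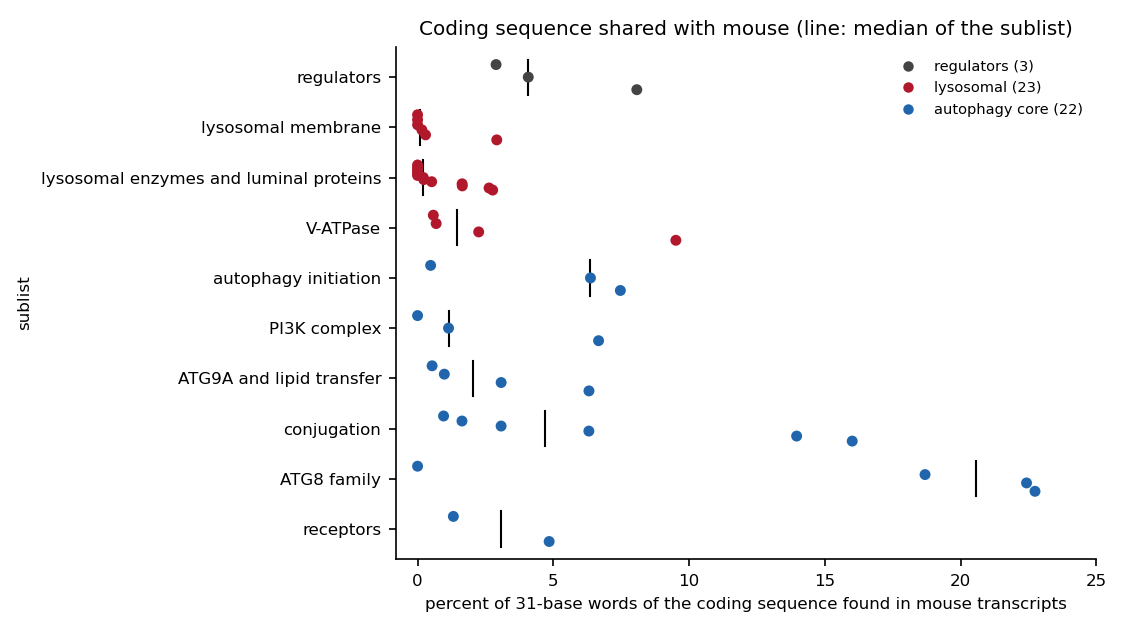
Percent of the distinct 31-base words of each member's coding sequence that also occur in mouse transcripts, by sublist, with the median of each sublist as a vertical line. GABARAP, GABARAPL1 and GABARAPL2 lay between 18.7% and 22.7% and MAP1LC3B at 0%, whereas 9 of 23 lysosomal genes had no shared word.

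The 2 pipelines that count aligned reads, Xenome and XenofilteR, gave nearly the same means for the members. After centring on the protein-coding median, 47 of 48 members differed by less than 10% between them, against 97.4% of protein-coding genes. The exception was GABARAPL2, with a centred ratio of XenofilteR over Xenome of 1.23-fold. It was the only member past 1.2-fold, a difference reached by 0.998% of 13321 protein-coding genes. Of its transcript words, 3.49% occurred in mouse transcripts, and among protein-coding genes the share that differed by over 10% between these pipelines was 1.71% where no word was shared with mouse and 7.32% where over 3% were. GABARAP shared as many words, 3.63%, and its means with Xenome and XenofilteR were 2358 and 2354. Whether mouse reads account for the higher GABARAPL2 mean was not tested.

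Kallisto, which assigns reads to transcripts, differed from Xenome for more members. The median centred log2 ratio of Kallisto over Xenome was -0.02 over the 48 members, -0.03 over the lysosomal genes and 0.01 over the autophagy genes, and 37 of 48 members (77.1%) lay within 10% of the centre, against 65.3% of protein-coding genes. At least 2-fold apart were 2 of 48 members (4.17%), against 9.21% of 13243 protein-coding genes, so the members as a list did not differ between pipelines more often than other genes. Both were higher with Kallisto, as were 93.0% of the protein-coding genes at least 2-fold apart. For GABARAP, with means of 8795 and 2358, the centred ratio was 3.65-fold. For CTSD, with means of 6720 with Kallisto, 2886 with Xenome and 2868 with XenofilteR, the centred ratio was 2.28-fold, and its level was 507 counts per kb with Xenome and 1179.5 with Kallisto, where it stood above LAMP1 and LAMP2. With a threshold of 1.5-fold, which 14.1% of protein-coding genes passed, HEXA at 1.76-fold and ATG9A at 1.59-fold were added. SQSTM1 at 1.39-fold, BECN1 at 1.35-fold, ATG7 at 1.29-fold and GABARAPL2 at 1.18-fold were also higher with Kallisto. Lower with Kallisto were GAA at 0.830-fold, ATG4B at 0.871-fold and GLA at 0.881-fold of the centred Xenome value.

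**Figure D3:**
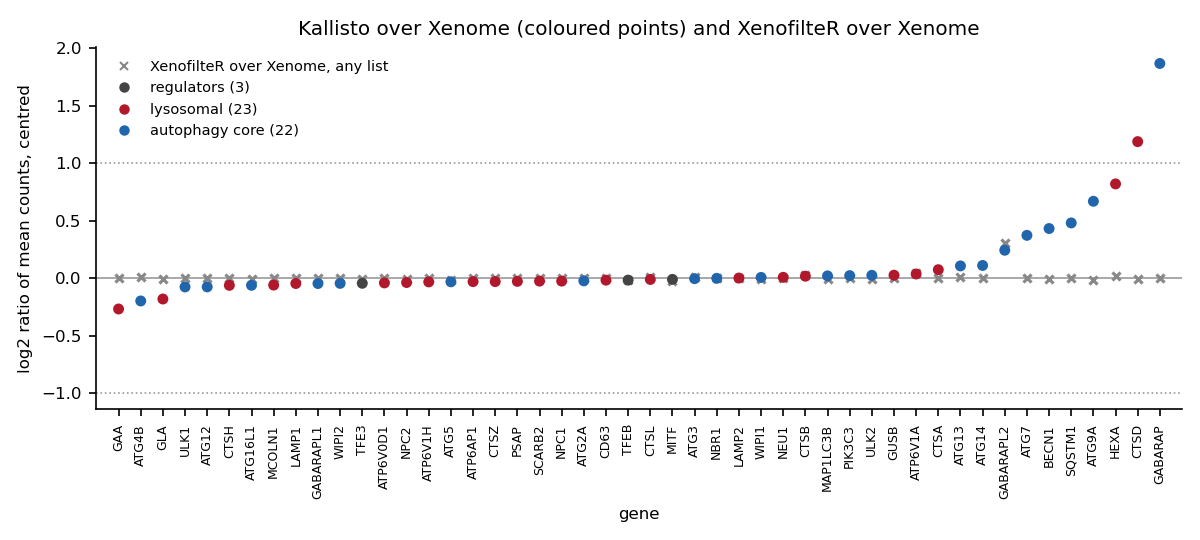
Centred log2 ratio of the Kallisto mean over the Xenome mean (coloured points) and of the XenofilteR mean over the Xenome mean (crosses) for each member, ordered by the first, with dotted lines at 2-fold. GABARAP at 1.87 and CTSD at 1.19 lay above the upper line, no member lay below the lower one, and the only cross away from 0 was that of GABARAPL2.

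The members with the highest Kallisto ratios share exons with other annotated genes. On the same strand, exons of another gene covered 38.8% of the merged exons of ATG9A, 35.4% of GABARAP and 27.3% of CTSD, and no more than 4.42% of any other member. The genes in question are protein-coding models without a symbol, ENSG00000284820 at ATG9A, ENSG00000262526 at GABARAP and, for most of the shared bases, ENSG00000250644 at CTSD. Their own means were low. ENSG00000284820 had 51.3 with Xenome and 302 with Kallisto, and ENSG00000250644 had 2.79 with Xenome and 71.7 with Kallisto, while ENSG00000262526 had 8.63 with Kallisto. Among protein-coding genes, the median ratio of Kallisto over Xenome was 0.992-fold for 10798 genes without such overlap, 1.24-fold for 594 genes with over 10% and up to 30% of their exons covered, and 3.23-fold for 510 genes with more. GABARAP lay near the last value, ATG9A below it, and CTSD above the value of its class. HEXA had only 3.88% of its exons covered on the same strand and 14.1% on the opposite strand, and the part of shared exons in its ratio of 1.76-fold was not tested.

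**Figure D4:**
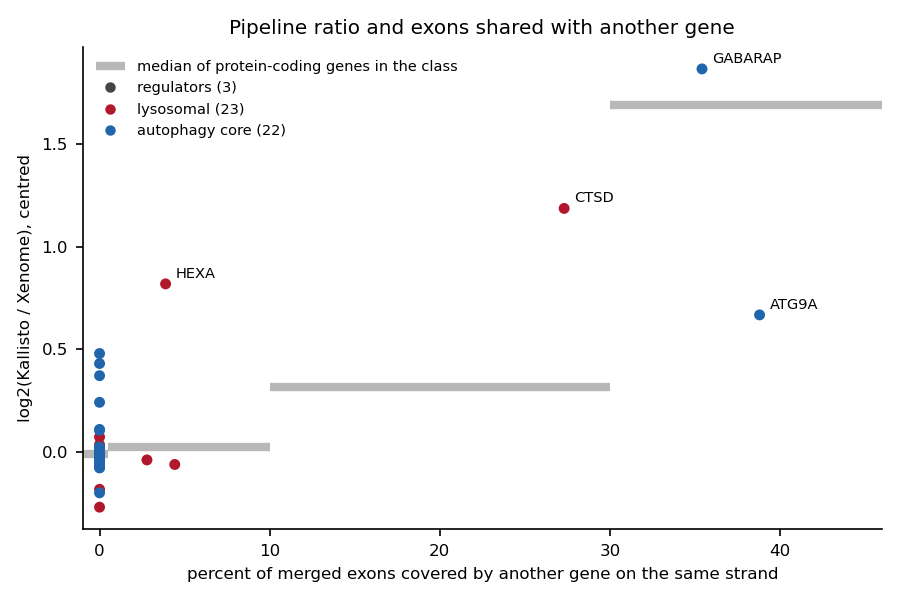
Centred log2 ratio of Kallisto over Xenome against the percent of each member's merged exons covered by exons of another gene on the same strand, with grey bars for the median of protein-coding genes in each class of overlap. GABARAP, CTSD and ATG9A were the members with over 10% coverage, and HEXA had a ratio of 0.82 with 3.88% coverage.

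Overlap on the opposite strand was more common and moved less with the ratio. Exons on the opposite strand covered at least 10% of the exons of 10 members (20.8%, against 14.5% of protein-coding genes), most of all CTSZ with 31.7%, where NELFCD lies, and WIPI1 with 28.1%, where ARSG lies. The centred ratios of CTSZ and WIPI1 were 0.979-fold and 1.00-fold. SQSTM1, BECN1 and ATG7, with ratios from 1.29-fold to 1.39-fold, had opposite-strand coverage between 17.1% and 22.4%, from MRNIP and MGAT4B, from CNTD1 and PSME3, and from VGLL4. ATG14 and CTSA had similar coverage, 20.8% and 21.5%, and ratios of 1.08-fold and 1.05-fold. Among protein-coding genes without same-strand overlap, the median ratio was 1.07-fold for 1158 genes with over 10% and up to 30% of their exons covered on the opposite strand, and 1.37-fold for 379 genes with more, the class of CTSZ, of which 21.6% were at least 2-fold apart. The libraries were prepared with a stranded kit, but whether the counting of aligned reads used strand is not given in the sources used here, so reads of these pairs may not have been told apart.

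The E-box bound by the MiT/TFE factors was then looked up in the promoters of the members. The windows were those of RefSeq on GRCh38.p14, from 250 bases before to 50 bases after an annotated start, and 42 of 48 members had at least 1 such window, 59 windows in all. The letters CACGTG, the same on both strands, occurred in the windows of 10 of 42 members (23.8%), against 8.77% of 27305 genes and 7.26% of 35116 windows. The longer TCACGTG, on either strand, occurred in 9 of 42 members against 4.49% of genes, and TCACGTGA in 6 of 42 (14.3%) against 1.18% of genes. These motifs contain each other, so the 3 counts are nested. All 48 members are protein-coding, whereas the 27305 genes were not limited to the 13327 protein-coding genes used as background for the levels. A share over those 13327 genes is not given here. Of the 10 genes with CACGTG, 8 were among the 17 lysosomal genes with a window, LAMP1, CD63, MCOLN1, CTSA, CTSD, GAA, NEU1 and ATP6V0D1, and 2 were among the 22 autophagy genes, ATG3 and ATG14. None of the 3 regulators had it. A match is a description of the letters in the window and not a site of binding, and no binding was measured.

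One match is shown for each of the 6 members with the longest motif. Of the members with the next longest, CTSD and ATG14 are shown. NEU1, whose match began at -126 bases from the start, is not. The sequences are given because these are the letters through which the regulators are known to act on lysosomal genes. Each sequence runs 5′ to 3′ on the strand of its gene, with CACGTG in capitals and 12 bases on either side.
LAMP1, chr13:113297199-113297228, plus strand: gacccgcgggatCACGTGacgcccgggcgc
GAA, chr17:80101538-80101567, plus strand: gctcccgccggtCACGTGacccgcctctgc
MCOLN1, chr19:7522598-7522627, plus strand: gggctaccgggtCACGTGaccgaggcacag
CTSA, chr20:45891298-45891327, plus strand: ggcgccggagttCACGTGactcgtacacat
ATP6V0D1, chr16:67481199-67481228, minus strand: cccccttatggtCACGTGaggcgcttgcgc
ATG3, chr3:112561940-112561969, minus strand: agagtctagtgtCACGTGaggccccggtgg
CTSD, chr11:1763957-1763986, minus strand: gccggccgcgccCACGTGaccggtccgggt
ATG14, chr14:55411834-55411863, minus strand: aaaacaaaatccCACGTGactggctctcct
LAMP1 held the most matches, 6 in its window, and GAA, MCOLN1, CTSA and ATG3 held 2 each. Within 50 bases of the annotated start on either side lay matches of 7 of the 10 genes, so of 7 of 42 members with a window (16.7%), against 3.51% of 27305 genes. The first base of the match shown for LAMP1 was 28 bases before its start. The levels of the 10 genes ran from 143 counts per kb for ATG14 to 2786 for CD63, on both sides of the median of all 48 members, 353 counts per kb.

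**Figure D5:**
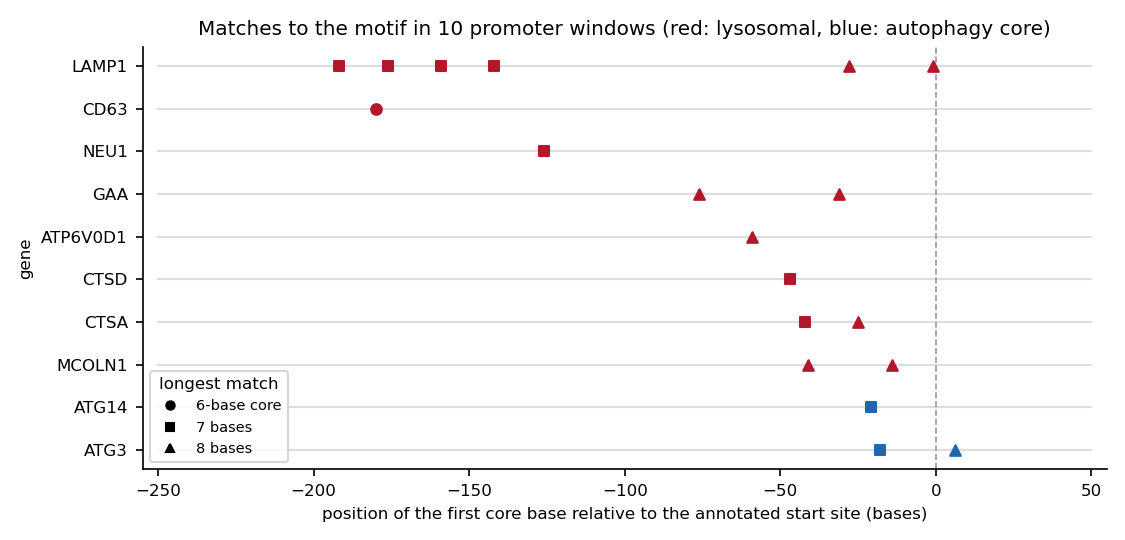
Position of each match to CACGTG, in bases from the annotated start, in the promoter windows of the 10 members that hold one, with symbols for the longest form matched. LAMP1 had 6 matches, 8 of the 10 genes were lysosomal, and the single matches of CD63 and NEU1 lay farther than 100 bases before the start.

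Genes of the same organelle and process outside the 48 gave a smaller contrast. Of 59 other lysosomal genes, 36 (61.0%) lay above the protein-coding median and the median level was 379 counts per kb. Of 25 other autophagy genes, 14 (56.0%) lay above it and the median was 314. The ratio of these medians was 1.20, against 1.77 for the members. Of the other lysosomal genes, 7 of the 57 whose mean reached 10 in both pipelines (12.3%) were at least 2-fold apart between Xenome and Kallisto, a share near the 9.21% of protein-coding genes, and 1 of 23 other autophagy genes was. All 7 were higher with Kallisto, the direction of 93.0% of the protein-coding genes so far apart. Among the 7 was CLN3, a lysosomal membrane protein, with mean counts of 60.4 with Xenome and 1175 with Kallisto. ATP6V0C, the proteolipid of the V-ATPase, had 1281 and 6492, and 76.3% of its exons were covered by another gene on the same strand. The 11 other V-ATPase genes outside the members had Kallisto over Xenome ratios from 0.944-fold to 1.10-fold, and the 4 among the members had ratios from 0.971-fold to 1.02-fold.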

How the data were processed

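RNA-Seq libraries (stranded mRNA, 50-base paired ends) were analysed. The authors selected human reads with Xenome before HISAT2 alignment to GRCh38. For XenofilteR, reads were aligned to GRCh38 and GRCm38 first, and mouse reads were then removed. Both were counted by featureCounts. In the other pipeline the authors ran Kallisto on joined human and mouse GENCODE transcripts. Versions are not given in the sources used here. The authors deposited, for each pipeline, a mean over 6 libraries of counts divided by DESeq2 size factors, a pooled value with no spread, which is the only measurement used. The other deposited columns hold the authors' comparison of co-culture with C4-2B alone (log2 fold changes, standard errors, test statistics, p-values and adjusted p-values) and were not used. MC3T3-E1 libraries were not analysed here.

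The planned edgeR test needed counts per library and was not run. After 21 rows that list a gene again were dropped, 41713 genes remained, of which 41538 were in GENCODE release 44. Merged exon lengths, exon overlaps and 31-base words came from that release, with mouse words from GENCODE M21 transcripts. Background genes were protein-coding with a mean of at least 10. Ratios of pipelines were centred on the background median (0.03 on the log2 scale for Kallisto over Xenome). Full values were given for the regulators, the ATG8 family, the 5 highest and 5 lowest levels of each list and members at least 2-fold apart between pipelines. The members, lists and motifs were chosen with earlier results of these data known. Python 3.11.15, numpy 2.4.6, pandas 2.3.3 and numba 0.67.0 were used. The calculations of exon overlap, shared words, size factors and centred ratios and the motif search were tested on made-up data.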

Additional observations from a re-analysis of the deposited data

How the results depend on the processing

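The means carry no spread between libraries, MITF had the lowest mean count of the members, and a level per kb depends on which exons a gene model holds. No paired analysis was possible because the table holds means over libraries, and for the same reason no replicate was left out and no other normalization was tried. The ratio of the lysosomal over the autophagy median stayed above 1 in 7 alternatives, from 1.27 with the enzymes and luminal proteins alone to 2.11 without division by length. Of 2 alternatives chosen after seeing the data, leaving out GABARAP, CTSD and ATG9A gave 1.68, and the other lysosomal over the other autophagy genes gave 1.20, the lowest ratio. Members above the background median numbered from 30 with a minimum mean count of 50 to 48 against all genes with a positive mean, in 6 alternatives. The median Kallisto over Xenome ratio of the members stayed between -0.02 and 0.02 on the log2 scale in 4 alternatives, and the Kallisto over XenofilteR ratio was -0.01. A threshold of 1.5-fold in place of 2-fold gave 4 members in place of 2, since a lower threshold takes in more genes. The motif TCACGTGA was in the promoters of 6 members in place of 10 with CACGTG, which it contains.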
